A study of Mus musculus with 11 samples.

Results

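Many microRNAs (miRNAs) are cut out of long noncoding host transcripts, and 7 such hosts that carry miRNAs known from the brain were followed here in mice that lost Dicer from forebrain neurons. The hosts were the rows of the deposited count table whose Ensembl identifier carries 1 of 7 GENCODE M21 names: Mir9-3hg, Mir124a-1hg, C130071C03Rik, Mir22hg, Mir99ahg, Mir17hg and 3110039I08Rik. All 7 were found among the 39017 genes of the table. The annotation places a miR-9 or miR-124 gene inside 3 of them (Mir9-3hg, C130071C03Rik and Mir124a-1hg), which are called the neuronal hosts after their miRNAs, since the cells that express them were not measured. The other 4 carry other miRNAs. In mice lacking Dicer, the miR-124 host Mir124a-1hg was higher in the hippocampal CA1 region (1.23-fold) and the miR-9 host C130071C03Rik was higher in the neocortex (1.20-fold). Each passed a test that called 3.89% of all genes tested in the CA1 and 2.71% in the neocortex. By edgeR, neither passed in the other tissue, and none of the other 5 hosts passed in either. In the neocortex Mir124a-1hg fell just short by edgeR (adjusted p = 0.0556) and passed with DESeq2 (adjusted p = 0.0138). Its change did not differ between the tissues at the threshold (adjusted p = 0.853 by edgeR). The C130071C03Rik call was kept in 1 of 6 fits with 1 library left out. The CA1 call of Mir124a-1hg was kept without control D5134 or D5135 and lost without control D5138. Leaving out a KO there leaves 1 KO library, with a log2 change of 0.28 without D5130 and 0.33 without D5133.

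A miRNA begins as a hairpin within a long primary transcript. In the nucleus, the Drosha and Dgcr8 complex cuts the hairpin out, and the rest of the host is spliced, polyadenylated or degraded like other long noncoding RNA. In the cytoplasm, Dicer cuts the hairpin to the mature duplex, so Dicer acts after the host transcript has been made and opened. Of the miRNAs carried here, miR-124 is known as an abundant miRNA of neurons and miR-9 as one of neural progenitors and neurons. The let-7, miR-99/100 and miR-125 families often sit together in shared hosts, miR-22 is expressed in many tissues, and the miR-17 cluster is best known from dividing cells.

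Polyadenylated RNA was sequenced from 11 bulk tissue samples of 7 mice aged 13 to 14 weeks. The knockouts (KO) carried the Camk2a-Cre transgene and Dicer flox/flox alleles, and the labels call the others control without giving their genotype. Camk2a-Cre acts mainly in excitatory forebrain neurons, so glia, vessels and most interneurons of a KO sample keep Dicer. The neocortex gave 3 controls (D5129, D5134, D5135) and 3 KO (D5130, D5132, D5133), all male, in stranded libraries with added ERCC spike-in RNAs. From the CA1 came unstranded libraries of another run, with males D5134 and D5135 and the female D5138 as 3 controls and males D5130 and D5133 as 2 KO. Each library of a group is a separate animal, and 4 animals gave both tissues. Since kit and run go with the tissue, the tissues cannot be compared for level, and KO was compared with control within each.

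The mature miRNAs that the hosts carry show which hosts could give the same product, and they are printed here in lower case with the seed (bases 2 to 8, which pair with targets) in capitals. Sequences come from RefSeq on GRCm38.p6, where 15 of the 17 miRNA genes within the hosts were matched by symbol. Mir124a-1 and Mir3078, both in Mir124a-1hg, are named only. The 2 miR-9 hosts carry the same 2 mature sequences at Mir9-3 and Mir9-2:
miR-9-5p: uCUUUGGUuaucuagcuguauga
miR-9-3p: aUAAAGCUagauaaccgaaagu

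Mir99ahg and 3110039I08Rik belong together by sequence. Both carry a copy of miR-125b-5p, and miR-99a-5p of the first and miR-100-5p of the second share the seed ACCCGUA. By GENCODE M21 each also holds a let-7 gene, Mirlet7c-1 and Mirlet7a-2:
miR-125b-5p: uCCCUGAGacccuaacuuguga
miR-99a-5p: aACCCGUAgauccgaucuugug
miR-100-5p: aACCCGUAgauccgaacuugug
let-7c-5p: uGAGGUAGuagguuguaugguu

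Mir22hg carries 1 miRNA gene. Mir17hg carries 6, and among them miR-17-5p and miR-20a-5p share 1 seed and miR-19a-3p and miR-19b-3p another:
miR-22-3p: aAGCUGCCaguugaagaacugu
miR-17-5p: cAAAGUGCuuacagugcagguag
miR-20a-5p: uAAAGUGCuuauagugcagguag
miR-18a-5p: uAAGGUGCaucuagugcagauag
miR-19a-3p: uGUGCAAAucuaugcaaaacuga
miR-19b-3p: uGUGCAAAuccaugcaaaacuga
miR-92a-3p: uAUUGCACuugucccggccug

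All 7 hosts lie on the plus strand of GRCm38, and the positions that follow are those of the deposited table. Mir9-3hg (ENSMUSG00000097023) spans chr7:79500026-79531259, and its hairpin lies in no exon of an annotated host transcript. C130071C03Rik (ENSMUSG00000050334) spans chr13:83721381-83741307, with Mir9-2 in an exon of 1 of its 5 transcripts. Mir124a-1hg (ENSMUSG00000097545) spans chr14:64588115-64593959, with Mir124a-1 and Mir3078 each in an exon of 1 of its 4 transcripts. Mir22hg (ENSMUSG00000085148) spans chr11:75461539-75466676, and both of its transcripts have Mir22 in an exon. Mir17hg (ENSMUSG00000089726) spans chr14:115042879-115046727, and its single transcript holds all 6 hairpins in an exon. Mir99ahg (ENSMUSG00000090386) spans chr16:77236317-77691397, with its 3 hairpins outside exons. Across the 7 hosts, 10 of 17 hairpins lay in an exon and 7 did not.

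The row of 3110039I08Rik (ENSMUSG00000074415), whose RefSeq symbol is Mir100hg, covers less than GENCODE M21 annotates. The table gives chr9:41580741-41614989, whereas GENCODE M21 gives chr9:41327077-41716994. The shorter span holds Mir125b-1 but neither Mir100 nor Mirlet7a-2, so its count measures the part of the host around miR-125b-1. The exons of C130071C03Rik share 1327 bp with Gm33366 on the opposite strand, those of Mir22hg share 206 bp with Tlcd2 on the same strand, and those of Mir99ahg share 21 bp with Gm11146 on the opposite strand. Reads over exons shared on opposite strands cannot be told apart in the unstranded CA1 libraries. Strand does not separate those shared by Mir22hg and Tlcd2 in either tissue. The strand setting of the counting is not given in the sources used here.

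Levels of different hosts were compared per exon length, as CPM (counts scaled to library size) divided by the kilobases of summed M21 exon within the table span (RPKM). In the neocortex controls, Mir124a-1hg had 75.1 ± 5.62 RPKM (SD, n = 3) and stood 4.37 times above the next host. C130071C03Rik at 17.2 ± 0.691 and Mir22hg at 16.6 ± 1.41 followed, and their control libraries overlapped. Further down came 3110039I08Rik at 6.93 ± 0.645 RPKM and Mir9-3hg at 4.51 ± 0.395 RPKM. Mir17hg (0.229 ± 0.0356) and Mir99ahg (0.227 ± 0.0557) were lowest, with Mir9-3hg 19.7-fold above the first of them, and their control libraries overlapped. RPKM divides by summed exon, 14.0 kb for Mir99ahg (17 transcripts) and 3.54 kb for Mir17hg (1 transcript). In CPM these controls had 3.19 for Mir99ahg and 0.811 for Mir17hg, so the near tie rests on this length.

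The order in the CA1 controls was the same down to Mir9-3hg. Mir124a-1hg had 55.4 ± 3.07 RPKM (SD, n = 3), C130071C03Rik 15.9 ± 0.473 and Mir22hg 15.8 ± 0.635, and the last 2 again overlapped. Mir99ahg at 0.508 ± 0.0549 stood above Mir17hg at 0.230 ± 0.0773 there, without overlap. In RPKM, the miR-124 host exceeded the lowest host by 331-fold in the neocortex and 241-fold in the CA1. The 2 miR-9 hosts, which give the same mature sequences, differed 3.81-fold in the neocortex and 4.30-fold in the CA1.

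**Figure D1:**
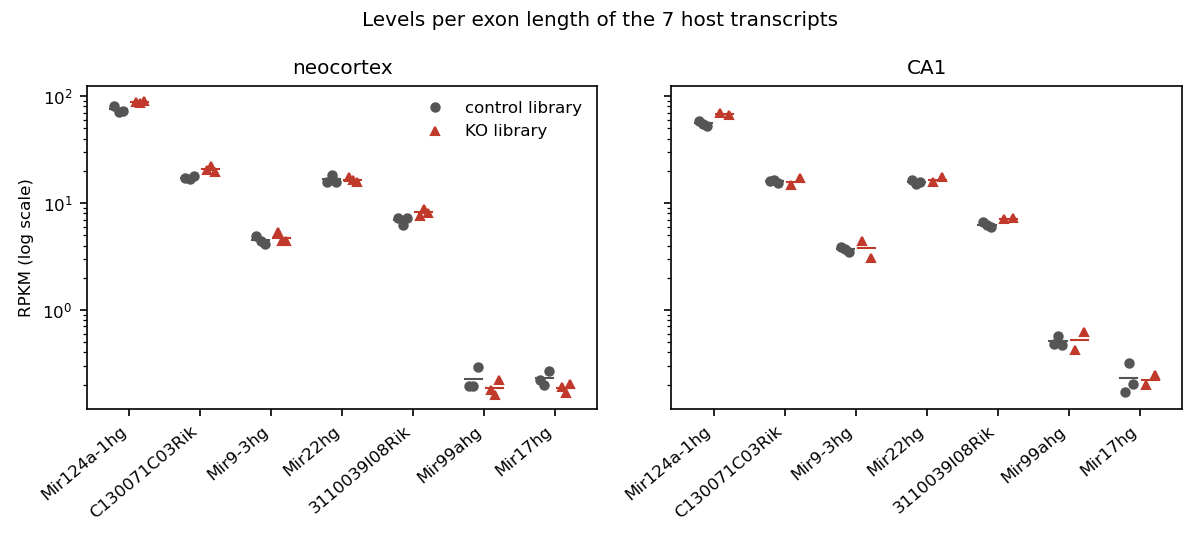
RPKM on a log axis of the 7 host transcripts in each control (grey circles) and KO (red triangles) library of the neocortex and the CA1, with lines at group means. Mir124a-1hg stands highest in each tissue and Mir99ahg and Mir17hg lowest, under 1 RPKM in all 11 libraries.

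Gene counts summed to between 43144097 and 58329441 reads per neocortex library and between 24806581 and 35684618 per CA1 library. Differences were tested by edgeR's quasi-likelihood test over all genes passing its count filter, with a Benjamini-Hochberg adjusted p under 0.05 as the threshold. All 7 hosts passed the filter in each tissue. Of 16971 genes tested in the neocortex 1.51% were called higher and 1.20% lower in KO, and of 18274 in the CA1 2.47% and 1.41%. An unadjusted p under 0.05, used below only to describe, was reached by 18% of neocortex genes and 17.3% of CA1 genes. Without D5133 the neocortex calls fell from 460 to 19, and the CA1 calls from 710 to 232. The whole-gene count of Dicer1, whose floxed part is not separated in the table, ranged from 59.0 to 66.5 CPM in the neocortex and from 68.7 to 75.2 in the CA1, and does not check the genotype labels. By their spike-in profiles the neocortex libraries formed 2 sets, D5129, D5130 and D5132 (set 1) and D5133, D5134 and D5135 (set 2), with correlations over 27 ERCC RNAs of 0.994 to 0.999 within and 0.895 to 0.913 between sets.

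Cell type markers moved with genotype, and the part of this in the host values was not tested. The 5 excitatory neuron markers summed to 5401 to 5479 CPM in neocortex controls and 4723 to 4817 in KO, and to 4919 to 5545 and 4424 to 4851 in the CA1, with 1 of 5 called lower in each tissue (Nrgn in the neocortex, Neurod6 in the CA1). Among 5 markers of activated microglia, edgeR called 5 higher in the neocortex (26.4 to 28.5 CPM in controls, 41.7 to 54.2 in KO). In the CA1 it called 4 higher (47.2 to 60.8 and 83.5 to 105.5). DESeq2 called 3 in the neocortex and 4 in the CA1. All 5 were higher with an unadjusted p under 0.05 in each tissue. All 5 oligodendrocyte markers were lower in the CA1 KO (3077 to 3751 CPM in controls, 2549 to 2561 in KO) while edgeR and DESeq2 called none in the neocortex, where none had an unadjusted p under 0.05. The 5 markers of progenitors and dividing cells summed to 59.9 to 64.0 CPM in neocortex controls and 68.9 to 78.3 in KO. In the CA1 the sums were 42.2 to 45.0 and 52.2 to 58.3. Dcx made up most of them, with a mean of 48.7 CPM in the neocortex and 26.9 in the CA1. Top2a (log2 fold change -0.80) and Nes (-0.01) were lower in the neocortex KO and Sox11 (-0.26) in the CA1 KO. The remaining estimates were positive. None of the 5 was called by edgeR, while Dcx had an unadjusted p under 0.05 and passed with DESeq2 in each tissue. Of 5 markers each, edgeR called 2 astrocyte, 1 microglia and 1 endothelial marker higher in the CA1 and 0 inhibitory neuron markers. In the neocortex edgeR called none of these 20 genes, DESeq2 called 2 (Gfap, higher, and P2ry12, lower), and 6 had an unadjusted p under 0.05. In bulk tissue, a change in how many cells carry a transcript and a change in its amount per cell cannot be told apart.

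Mir124a-1hg, the host of Mir124a-1, lay higher in every KO library than in every control of its tissue, and the difference passed the test in the CA1. In the CA1 it had 260.0, 242.8 and 233.1 CPM in controls D5134, D5135 and D5138 and 309.0 and 296.6 in KO D5130 and D5133. Both KO libraries lay above all 3 controls. This was a 1.23-fold rise, 0.30 on the log2 scale (SE 0.060), with an adjusted p of 0.0125 by edgeR. Leaving out D5130, D5133 or D5138 in turn took the edgeR adjusted p to 0.0785, 0.0513 and 0.0913, with a log2 change between 0.27 and 0.35 whichever library was left out.

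In the neocortex, Mir124a-1hg had 360.6, 314.5 and 321.4 CPM in controls D5129, D5134 and D5135 and 387.7, 380.2 and 400.6 in KO D5130, D5132 and D5133. All KO libraries again lay above all controls, with D5129 the nearest. At 0.23 on the log2 scale (SE 0.057), the difference fell just short of the threshold (adjusted p = 0.0556 by edgeR). It passed without D5129 (adjusted p = 0.0334 by edgeR) and with DESeq2 (adjusted p = 0.0138). It did not pass with any other single library left out (adjusted p of 0.107 to 0.275 by edgeR) or with spike-in set as a term (0.145). Within spike-in set 1 the log2 change was 0.09 and within set 2 it was 0.34. D5129 is the only control of set 1 and D5133 the only KO of set 2, so neither value has replicates on both sides.

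C130071C03Rik, the host of Mir9-2, rose in the KO neocortex. Its controls D5129, D5134 and D5135 had 83.5, 81.8 and 88.3 CPM, and KO D5130, D5132 and D5133 had 99.97, 109.6 and 95.3. The groups did not overlap. KO exceeded control 1.20-fold, or by 0.26 on the log2 scale (SE 0.062), with an adjusted p of 0.0439 by edgeR. The call was kept without D5135 (adjusted p = 0.0403 by edgeR) and lost without any other single library. The edgeR adjusted p was 0.121 without D5129, 0.0755 without D5134, 0.102 without D5130, 0.155 without D5132 and 0.104 without D5133, and 0.133 with spike-in set as a term. The direction was the same in each of these fits, and the log2 change was 0.33 within set 1 and 0.17 within set 2. Here too D5129 is the only control of set 1 and D5133 the only KO of set 2.

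In the CA1, the same transcript had 78.7, 80.2 and 75.6 CPM in controls D5134, D5135 and D5138 and 72.1 and 83.6 in KO D5130 and D5133. The KO libraries lay on either side of the controls. Their log2 fold change was -0.0074 (SE 0.074), and the adjusted p by edgeR was 0.977. The CA1 effect less the neocortex effect, tested in 1 fit of the 11 libraries, was -0.27 on the log2 scale (SE 0.10), with an unadjusted p of 0.0142 and an edgeR adjusted p of 0.371. That difference did not pass the threshold, and in the CA1 the reads of Gm33366 on the other strand may be counted with this host.

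Mir9-3hg was the other miR-9 host among the 7. In the neocortex it had 6.02, 5.43 and 5.06 CPM in controls D5129, D5134 and D5135. In KO D5130, D5132 and D5133 it had 6.59, 5.35 and 5.42 CPM. Its CA1 values were 4.77, 4.58 and 4.21 CPM in controls D5134, D5135 and D5138, and 5.44 and 3.75 in KO D5130 and D5133. The groups overlapped in each tissue, and D5130 gave the highest value of each. The log2 fold change was 0.07 (SE 0.13) in the neocortex and 0.04 (SE 0.19) in the CA1, with edgeR adjusted p of 0.848 and 0.951. With 94 to 351 reads per library, these SE are 2.16 and 2.54 times those of C130071C03Rik. The rise of 0.26 seen for C130071C03Rik in the neocortex would be 1.97 SE of Mir9-3hg there and 1.40 SE in the CA1.

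**Figure D2:**
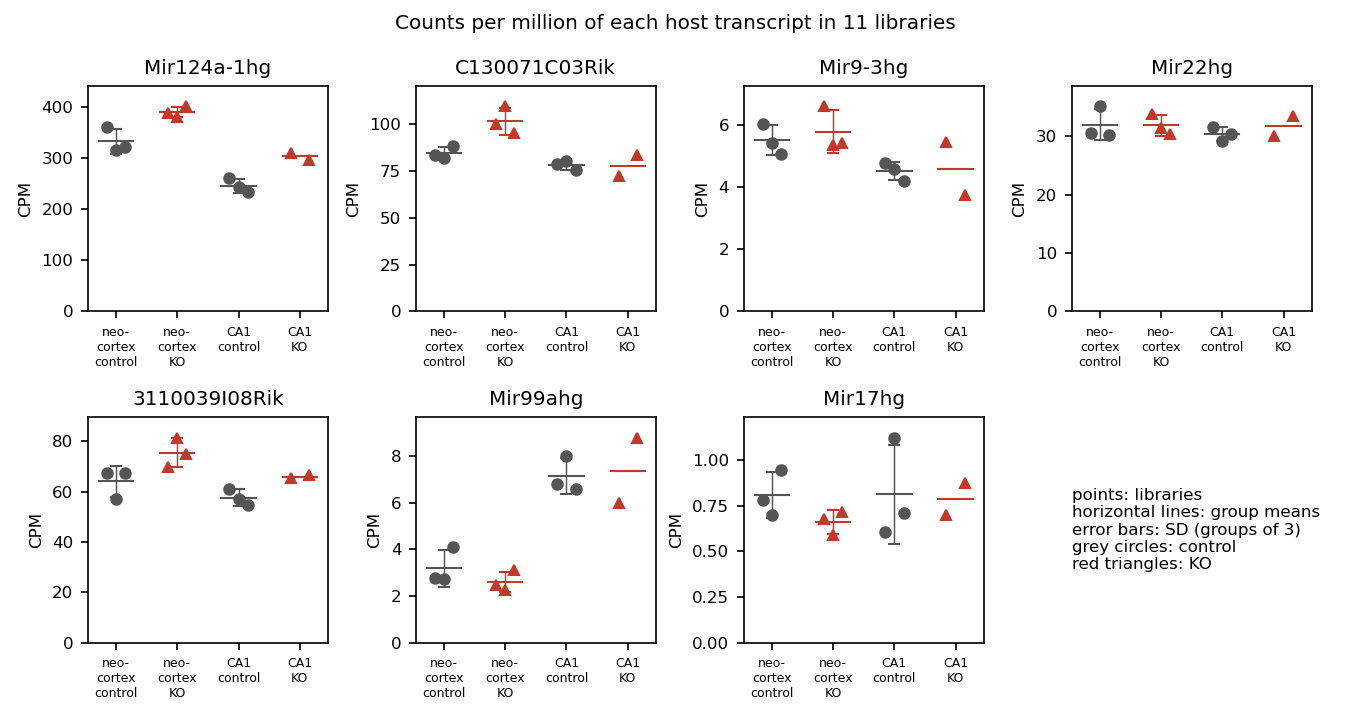
CPM (axes starting at 0) of each host in the 11 libraries, as points by tissue and genotype with group means and, for groups of 3, SD. KO points lie above all control points for Mir124a-1hg and 3110039I08Rik in each tissue and for C130071C03Rik in the neocortex only.

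Among the other 4 hosts, edgeR called none in either tissue. DESeq2 called none of the 3 for which it gave an adjusted p, and gave none for Mir17hg. An unadjusted p under 0.05 was found for 1 of the 4, 3110039I08Rik, in each tissue, a share near that of all genes (18% and 17.3%). This host of miR-125b-1 had 67.5, 57.2 and 67.5 CPM in neocortex controls D5129, D5134 and D5135 and 69.8, 81.3 and 75.1 in KO D5130, D5132 and D5133. The CA1 gave 61.2, 57.2 and 54.6 CPM in controls D5134, D5135 and D5138 and 65.4 and 66.5 in KO D5130 and D5133. Every KO library lay above every control in each tissue. The log2 fold change was 0.24 (SE 0.077) in the neocortex and 0.19 (SE 0.071) in the CA1, with edgeR adjusted p of 0.132 and 0.166. These fold changes are near those of the 2 called hosts, but they did not pass the threshold.

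Mir22hg, the host of miR-22, had 30.5, 35.1 and 30.3 CPM in neocortex controls D5129, D5134 and D5135 and 33.8, 31.5 and 30.4 in KO D5130, D5132 and D5133. Its CA1 libraries had 31.6, 29.1 and 30.3 CPM in controls D5134, D5135 and D5138, and 30.1 and 33.5 in KO D5130 and D5133. All 11 libraries lay between 29.1 and 35.1 CPM and the groups overlapped. In the neocortex its coefficient of variation over the libraries, 6.40%, was the lowest of the 7 hosts, as was 5.46% in the CA1. KO over control came to -0.0039 on the log2 scale in the neocortex (SE 0.077) and 0.07 in the CA1 (SE 0.087), with adjusted p of 0.989 and 0.766 by edgeR.

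Mir99ahg, the host of miR-99a, let-7c-1 and miR-125b-2, had 2.76, 2.72 and 4.09 CPM in neocortex controls D5129, D5134 and D5135 and 2.48, 2.27 and 3.10 in KO D5130, D5132 and D5133. CA1 levels were 6.81, 8.01 and 6.57 CPM in controls D5134, D5135 and D5138, and 5.96 and 8.77 in KO D5130 and D5133. The groups overlapped in each tissue, while every CA1 library stood above every neocortex library, across a change of kit and run. KO over control was -0.28 on the log2 scale in the neocortex (SE 0.20) and 0.04 in the CA1 (SE 0.18), with adjusted p of 0.514 and 0.951 by edgeR. So the 2 hosts that share the miR-125b-5p sequence had estimates of opposite sign in the neocortex, of which neither passed.

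Mir17hg, the host of the miR-17 cluster, had few reads, with 16 to 45 per library. It had 0.782, 0.702 and 0.949 CPM in neocortex controls D5129, D5134 and D5135 and 0.676, 0.592 and 0.718 in KO D5130, D5132 and D5133. CA1 levels were 0.606, 1.12 and 0.711 CPM in controls D5134, D5135 and D5138, and 0.702 and 0.877 in KO D5130 and D5133. The groups overlapped, and log2 fold changes of -0.29 (SE 0.27) and -0.06 (SE 0.40) had edgeR adjusted p of 0.643 and 0.963. These SE are as large as or larger than the log2 changes of the called hosts, so the values do not show whether Mir17hg changed by as much.

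**Figure D3:**
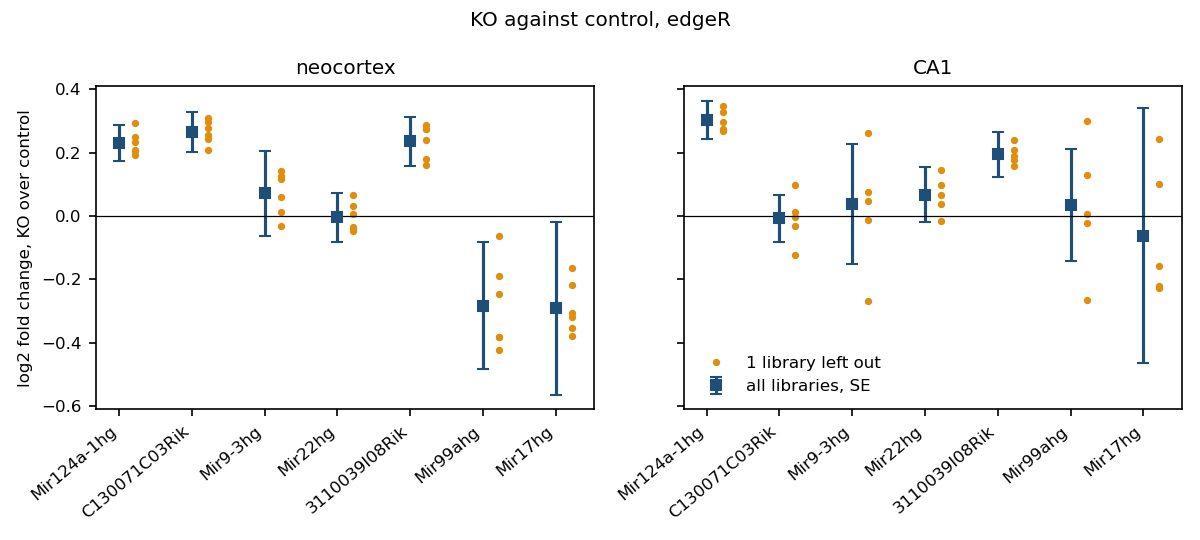
Log2 fold change of KO over control (edgeR) for each host in the neocortex and the CA1, with SE bars (squares) and the values with 1 library left out (small points). Mir124a-1hg and 3110039I08Rik stay above 0 with any 1 library left out in each tissue, while Mir9-3hg and Mir22hg fall on either side of 0.

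Counted over the 7 hosts, 1 was called in the neocortex and 1 in the CA1, each higher in KO. Of all genes tested, 1.51% in the neocortex and 2.47% in the CA1 were called higher. Every KO library lay above every control for 3 of 7 hosts in the neocortex, where 11.6% of all genes tested did so, and for 2 of 7 in the CA1, where 17.4% did. With 7 hosts, chosen with earlier results known, these counts are a description. No host was called by edgeR or DESeq2 for a difference of the KO effect between the tissues, and 1 (C130071C03Rik) had an unadjusted p under 0.05. Over all 19256 genes, edgeR called 0.0935%, and 9.51% had an unadjusted p under 0.05. The interaction was 0.08 on the log2 scale for Mir124a-1hg (SE 0.087, adjusted p = 0.853 by edgeR), and the remaining hosts had edgeR adjusted p of 0.783 to 1.00 apart from C130071C03Rik, given above.

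The neuronal hosts were set against the other hosts in each tissue. In the neocortex the 3 neuronal hosts had log2 fold changes of 0.07 to 0.26 (median 0.23) and the other 4 had -0.29 to 0.24 (median -0.14), while the median of all genes tested was 0.0021. In the CA1 the neuronal hosts had -0.01 to 0.30 (median 0.04) and the others -0.06 to 0.19 (median 0.05), with a median of -0.00041 for all genes. The ranges of the classes overlapped in each tissue.

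The same comparison was made within each library, as the mean log2 CPM of the neuronal hosts less that of the others. In neocortex controls D5129, D5134 and D5135 this difference was 2.77, 2.70 and 2.46, and in KO D5130, D5132 and D5133 it was 2.98, 2.96 and 2.79. KO stood 0.26 higher on average, and the lowest KO library was close to the highest control. In CA1 controls D5134, D5135 and D5138 it was 2.25, 1.997 and 2.14, and in KO D5130 and D5133 it was 2.35 and 1.96, a mean difference of 0.03 with overlap. Hosts with few reads weigh as much in this difference as the others, and the CA1 value was 0.22 without D5133 and -0.16 without D5130.

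**Figure D4:**
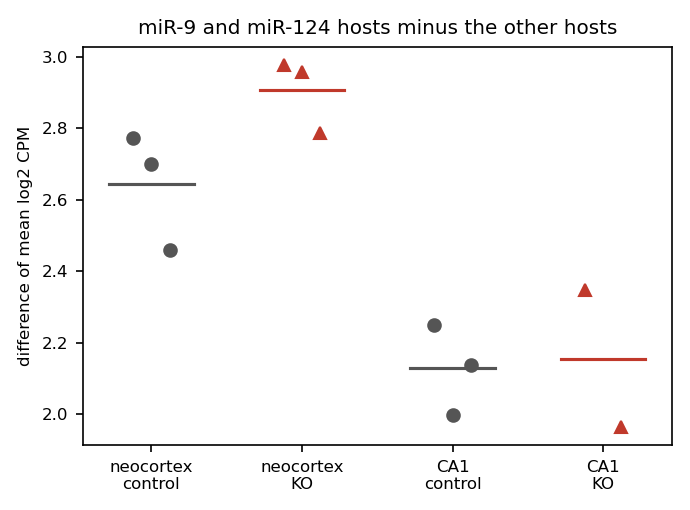
Difference between the mean log2 CPM of the 3 miR-9 and miR-124 hosts and that of the other 4 hosts, for each library, with lines at group means. The 3 neocortex KO libraries (2.79 to 2.98) lie above the controls (2.46 to 2.77), and the CA1 KO libraries lie on either side of the controls.

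The table also holds a separate row for each of the 17 hairpins, which in polyadenylated RNA can count reads of uncut host transcript over the hairpin but not the mature miRNA. No read was counted for 10 hairpins in the neocortex and for 6 in all 11 libraries. The 4 hairpins with at least 30 reads in all, a minimum chosen after their values were seen, are described here. All 4 lie in a host exon, though Mir124a-1, Mir3078 and Mir9-2 do so in only 1 annotated transcript of their host.

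The 2 hairpins of Mir124a-1hg lie 443 bp apart, yet the read counts over them differed widely. In the neocortex, Mir3078 had 193, 104 and 163 reads in controls D5129, D5134 and D5135 and 210, 180 and 226 in KO D5130, D5132 and D5133. Mir124a-1 had 8, 3 and 6 in those controls and 13, 3 and 10 in KO. Over the 6 libraries this was 1076 against 43 reads, or 25.02-fold, and the ratio ran from 16.2 to 60.0 between libraries.

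In the CA1, Mir3078 had 219, 298 and 309 reads in controls D5134, D5135 and D5138 and 373 and 256 in KO D5130 and D5133, against 18, 27 and 28 and 32 and 43 for Mir124a-1. This came to 9.83-fold, from 5.95 to 12.2 between libraries. Per kilobase, reads over Mir124a-1 reached 0.0201 of the density of the host's exons in the neocortex and 0.188 in the CA1, whereas Mir3078 reached 0.492 and 1.80. Where reads that overlap an interval only in part are counted, a short interval gathers more of them per kilobase, and the counting rule is not given in the sources used here.

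Mir22, in an exon of Mir22hg, had 301 reads in the neocortex and 380 in the CA1, which was 0.626 and 1.63 of the density of the host's exons. Set against the reads of the host, this was 2.87% to 3.66% in neocortex controls and 2.51% to 3.38% in KO, which overlapped. The CA1 controls had 6.47% to 7.40% and the KO 8.80% and 10%, without overlap. In CPM rather than such shares, every KO library lay above every control for 17.4% of all genes tested in the CA1. The shares of Mir124a-1, Mir3078 and Mir9-2 overlapped between KO and control in each tissue, and the Mir22 row itself did not pass the CA1 test (log2 fold change 0.48, SE 0.21, adjusted p = 0.261 by edgeR). Mir9-2, in an exon of C130071C03Rik, had 76 reads in the neocortex and 182 in the CA1, or 0.182 and 1.04 of the exon density.

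None of these rows passed in edgeR or DESeq2 where it was tested (3 rows in the neocortex, 4 in the CA1), and 2 in the CA1, Mir22 and Mir3078, had an unadjusted p under 0.05. The log2 fold change of Mir124a-1 in the CA1 was 0.76 (SE 0.36, adjusted p = 0.301 by edgeR), and that of Mir3078 was 0.26 (SE 0.17) in the neocortex and 0.28 (SE 0.13) in the CA1, with adjusted p of 0.477 and 0.282 by edgeR. In Mir17hg, the 6 hairpins cover 536 bp and drew 8 reads over the 11 libraries, against 349 for the host. The other miR-124 loci with a row, Mir124a-2 and Mir124a-3, drew 37 and 19 reads in all.

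**Figure D5:**
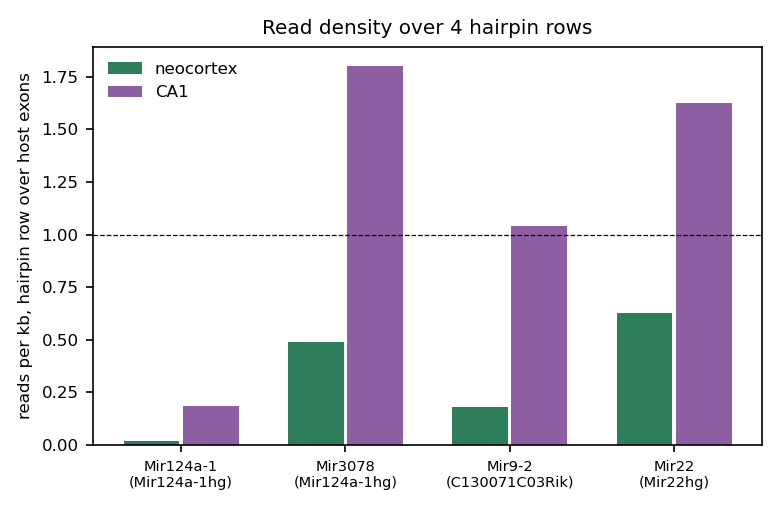
Reads per kilobase over 4 exonic hairpins divided by reads per kilobase over the exons of their host, from the summed libraries of each tissue, with a dashed line where both are equal. Mir124a-1 is lowest in each tissue (0.0201 and 0.188) and Mir3078, in the same host, is at 0.492 and 1.80.

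Genes known to cut or regulate these hosts were read from 3 lists. Of 11 tested genes of miRNA processing, none was called in either tissue by edgeR or DESeq2, while 4 of 11 in the neocortex and 1 of 11 in the CA1 had an unadjusted p under 0.05, beside 18% and 17.3% of all genes. Their median log2 fold change was 0.09 in the neocortex and 0.02 in the CA1. Drosha, the nuclease that opens the hosts, had log2 fold changes of 0.03 (SE 0.050) in the neocortex and 0.02 (SE 0.062) in the CA1, with adjusted p of 0.856 and 0.940 by edgeR. Its partner Dgcr8 had 0.09 (SE 0.067) and -0.11 (SE 0.078), with adjusted p of 0.521 and 0.523 by edgeR.

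The REST repressor, which is known to hold neuronal genes including miR-124 and miR-9 hosts silent outside neurons, was tested with its partners. In the neocortex edgeR called 1 of 13, the histone methyltransferase Ehmt2, which was lower (log2 fold change -0.23, SE 0.051, adjusted p = 0.0366 by edgeR). DESeq2 called Ehmt2 and the phosphatase Ctdsp2, which was higher (log2 fold change 0.22). An unadjusted p under 0.05 was found for 4 of 13, these and the corepressors Rcor1 (0.27) and Rcor3 (0.23), both with a higher KO mean. In the CA1 edgeR and DESeq2 called none of the 13, and 1 (Rcor2, a corepressor) had an unadjusted p under 0.05. Rest itself had log2 fold changes of 0.09 (SE 0.15) and -0.08 (SE 0.18), with adjusted p of 0.830 and 0.877 by edgeR. Of 8 regulators of the miR-17 cluster and the p53 axis, edgeR and DESeq2 called 1 in the neocortex, the cell cycle activator E2f1, which was lower and had the only unadjusted p under 0.05 (log2 fold change -0.44, SE 0.10, adjusted p = 0.0452 by edgeR). In the CA1 edgeR called none and DESeq2 called 1, the cell cycle inhibitor Cdkn1a, and 3 had an unadjusted p under 0.05. Of all genes tested, edgeR called 2.71% in the neocortex and 3.89% in the CA1, and 18% and 17.3% had an unadjusted p under 0.05.

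For each host, the genes whose log2 CPM followed it most closely over the 11 libraries, each tissue centred on its own mean, were taken from 12609 named genes. These correlations are descriptions, and part of each is the shared genotype difference. Mir124a-1hg was followed most closely by Mirg (r = 0.963), itself a noncoding miRNA host, then by Anxa4 (0.961), which encodes an annexin, and C77080 (0.954). Mirg had a log2 fold change of 0.37 in the CA1 (SE 0.092, adjusted p = 0.0376 by edgeR) and 0.20 in the neocortex (SE 0.064, adjusted p = 0.117 by edgeR). C130071C03Rik was followed by Kpnb1 (r = 0.953), the nuclear import receptor, Spopl (0.939) and Hic2 (0.930). The closest to 3110039I08Rik were Cplane1 (r = 0.971), Hectd4 (0.961) and Map6 (0.954), and for Mir9-3hg, Mir22hg, Mir99ahg and Mir17hg the highest r were 0.882 (Prph), 0.895 (B3galnt1), 0.912 (Sox7) and 0.924 (Sh3rf1).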

How the data were processed

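The deposited values are raw read counts per Ensembl gene in 11 libraries, not normalized. The submitters' processing notes name GSNAP, SAMtools, bedtools, FastQC and the build GRCm38; versions, counting rule, annotation release and strand setting are not given in the sources used here. Of 39109 entries, 92 were ERCC RNAs, and 37607 of 39017 genes (96.4%) matched a GENCODE M21 name by identifier; genes without a name took up to 0.507% of the reads in a library.

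The members and lists were chosen with earlier results of these data known. Counts were tested per tissue with edgeR 4.0.16 in R 4.3.3 (TMM scaling, filterByExpr, robust quasi-likelihood F-test, two-sided, Benjamini-Hochberg adjustment over all genes tested, threshold 0.05). The SE was obtained as |log2 fold change| over the root of F. CPM and RPKM use TMM-scaled library sizes, and log2 CPM a prior count of 2. The interaction was fitted over all 11 libraries with 4 group means; the labels name the same animal for both tissues of 4 animals, and a fit with animal as a block was an alternative. Other alternatives were RLE size factors, DESeq2 1.42.0, no count filter, leaving out each library, 1 fit of all libraries, a spike-in set term and ERCC scaling; fits within each spike-in set were added after seeing the data.

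All 7 hosts are named. Other names were drawn from set groups. Annotated miRNA hosts past the threshold came from those with the smallest p, up to 8 per direction and tissue. Correlated genes came from the 3 highest for a host among named genes of at least 1 CPM in each tissue. The hosts, Gm and Rik names and sex-linked genes were left out of that search. Dicer1 and list genes were also named. List genes given with values, the protein-coding hosts named, noncoding hosts short of the threshold and the hairpins described were chosen after their values were seen.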

Additional observations from a re-analysis of the deposited data

How the results depend on the processing

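Of 266 fits of the 7 hosts under other settings (the 2 tissues and their difference), 220 kept direction and side of the threshold, 2 (Mir17hg with DESeq2 in each tissue) had no adjusted p, 12 lost a call, 4 gained one and 28 changed sign. The genes called in the neocortex (460) became 908 with DESeq2, 770 without the count filter, 191 with a spike-in set term, 4 with ERCC scaling, 11 within set 1 and 77 within set 2, and 19 to 430 with 1 library left out. CA1 calls (710) became 1467 without the filter and 232 to 732 with 1 library left out. Calls for the difference between tissues (18) became 156 with DESeq2, 237 without the filter and 1 to 31 with 1 library left out. Pairing tissues by animal (the replicate block) gave 114, none of them a host, and turned the difference for Mir124a-1hg to -0.044. ERCC scaling moved the median log2 change of all genes to 1.06; Mir22hg, Mir99ahg and Mir17hg became 0.98, 0.88 and 0.85, which is -0.09, -0.19 and -0.21 relative to that median, while C130071C03Rik had 0.26, Mir124a-1hg 0.27 and 3110039I08Rik 0.30 relative to it, and C130071C03Rik lost its call (adjusted p = 0.300 by edgeR). Within set 1, Mir9-3hg became -0.011 and Mir22hg 0.10. With 1 library left out, sign changed for Mir9-3hg (-0.032 to 0.14) and Mir22hg (-0.048 to 0.068) in the neocortex. In the CA1 it changed for Mir9-3hg (-0.27 to 0.26), C130071C03Rik (-0.12 to 0.10), Mir22hg (-0.016 to 0.15), Mir99ahg (-0.26 to 0.30) and Mir17hg (-0.23 to 0.24). For the difference between tissues it changed for Mir9-3hg (-0.37 to 0.18), Mir124a-1hg (-0.0071 to 0.12), Mir22hg (-0.023 to 0.11) and 3110039I08Rik (-0.12 to 0.025). The class difference in the CA1 (0.03) was -0.056 with medians over hosts and -0.16 to 0.22 with 1 library left out; that of the neocortex (0.26) was 0.40 with medians and 0.17 to 0.33 with 1 library left out. The cause of these shifts was not tested.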

Other observations

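Beyond the 7 hosts, the annotation places a miRNA gene on the same strand inside 854 other genes of the table. In the neocortex 736 were tested, 18 were higher in KO (2.45%) and 9 lower (1.22%), beside 1.51% and 1.20% of all genes, with a median log2 fold change of 0.04. In the CA1 753 were tested, 27 were higher (3.59%) and 7 lower (0.930%), beside 2.47% and 1.41% of all genes, with a median of 0.03. Of the 854, 760 are protein-coding. Ankrd52, a subunit of a phosphatase that acts on Argonaute, was the host with the smallest p in each tissue (log2 fold changes of 1.14, SE 0.083, in the neocortex and 0.75, SE 0.065, in the CA1, with adjusted p of 0.000409 and 2.68e-05 by edgeR). Clcn5, a chloride and proton exchanger that holds 5 miRNA genes, rose from 14.8 to 25.5 CPM in the neocortex (log2 fold change 0.78, SE 0.088, adjusted p = 0.00235 by edgeR). In the CA1, Igf2, a growth factor and the host of Mir483, rose from 37.9 to 103.4 CPM (log2 fold change 1.45, SE 0.14, adjusted p = 0.0021 by edgeR), and Vmp1, an autophagy protein whose gene overlaps Mir21a, fell from 90.5 to 74.6 CPM (log2 fold change -0.28, SE 0.068, adjusted p = 0.0346 by edgeR).

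Noncoding hosts are closer in kind to the 7. Of 37 tested in the neocortex and 44 in the CA1, 1 was called in each, higher in KO (2.70% and 2.27%, beside 1.51% and 2.47% of all genes). In the neocortex this was A330023F24Rik, the host of miR-29b-2 and miR-29c, at 135.9 ± 3.23 CPM in controls and 189.5 ± 18.1 in KO (SD, n = 3 each; log2 fold change 0.48, SE 0.065, adjusted p = 0.00602 by edgeR). In the CA1 the same host had 113.7 and 135.9 CPM and did not pass (log2 fold change 0.26, SE 0.089, adjusted p = 0.145 by edgeR). The CA1 call was Mirg, which holds 14 annotated miRNA genes of its cluster, at 33.1 ± 3.19 CPM in 3 controls and 40.8 and 44.8 CPM in the 2 KO. Ftx, the host of miR-421 and miR-374b, had 41.0 ± 2.67 CPM in neocortex controls and 50.8 ± 4.96 in KO (SD, n = 3 each), short of the threshold (adjusted p = 0.0607 by edgeR). Gm3764, a further miR-9 host that holds Mir9-1 and Mir3093, had 98.85 CPM in neocortex controls and 107.3 in KO. It was not called there (log2 fold change 0.12, SE 0.079, adjusted p = 0.484 by edgeR). In the CA1 it had 122.1 and 125.7 CPM and was not called (log2 fold change 0.04, SE 0.071, adjusted p = 0.841 by edgeR).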
